A study of Mus musculus with 24 samples.

Results

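The proteasome is the cell's main machine for destroying proteins that carry a ubiquitin tag, and this account covers the genes of its parts in mouse liver. Members were taken by name, as every gene of the deposited table whose symbol begins with Psma, Psmb, Psmc, Psmd, Psme, Psmf or Psmg followed by a digit, which gave 50 of 14995 genes. The filter on low counts passed 49 of the 50, and the exception was Psmc3ip, a recombination factor that shares only the start of its name. Psme3ip1, which binds an activator of the proteasome, is likewise no part of it. The other 48 members comprise 8 genes of the alpha ring, 7 constitutive and 3 immunoproteasome genes of the beta ring, 17 of the cap, 5 of activators, 7 of assembly chaperones and 1 inhibitor. Liver RNA came from 24 mouse libraries in 3 groups of 8, all taken 20 weeks after surgery, and the labels give no strain, sex, age or genotype. RYGB mice had Roux-en-Y gastric bypass, an operation against obesity that leads food around most of the stomach and the first stretch of gut. Sham mice had a sham operation, and WM mice ate a restricted amount of calories that kept their weight at that of the RYGB mice. The series title calls the mice obese, no lean group was analysed here, and whether WM mice were also operated on is not said.

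A proteasome has a barrel-shaped core, the 20S particle, built from outer rings of alpha subunits, which form the gate, and inner rings of beta subunits, some of which cut proteins. The 19S cap sits on the barrel's end, where its lid and base bind ubiquitin chains, remove them, unfold the protein and feed it into the core. Under interferon the cutting subunits are replaced by immunoproteasome subunits, which favour the peptides shown to T cells, and more of the PA28 activator is made. Liver makes and breaks down large amounts of protein, and transcription factors of the Nfe2l family are known to drive the core and cap genes together when proteasome capacity falls short.

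Gene control regions of members that moved together, and of the beta subunit that did not, were read from RefSeq's mouse assembly GRCm38.p6. Of the 50 members, 42 had a window of 300 bases from 250 before to 50 after a transcript start. The core of the antioxidant response element, TGANNNNGC, through which Nfe2l factors act, was searched on both strands, with any overlap allowed. It lay in 22 of 42 member windows (52.4%) and in 41.4% of the 27025 windows of all genes. All 4 constitutive beta windows (Psmb3, Psmb4, Psmb5 and Psmb6) held it. Psmb4 and Psmb6 rose in both treated groups, while Psmb5 passed in neither. The 3 sequences below are given 5′ to 3′ on the gene's strand up to base 30 after the start, with the match in capitals, Psmb4 from chr3:94886929-94887208 (minus strand), Psmb6 from chr11:70525107-70525386 (plus strand) and Psmb5 from chr14:54617966-54618245 (minus strand).
Psmb4: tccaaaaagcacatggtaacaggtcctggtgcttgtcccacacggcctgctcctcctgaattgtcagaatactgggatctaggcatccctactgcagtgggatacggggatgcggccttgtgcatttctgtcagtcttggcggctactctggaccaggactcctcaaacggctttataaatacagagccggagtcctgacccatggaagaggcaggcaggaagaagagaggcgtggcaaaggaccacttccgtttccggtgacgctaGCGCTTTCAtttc
Psmb6: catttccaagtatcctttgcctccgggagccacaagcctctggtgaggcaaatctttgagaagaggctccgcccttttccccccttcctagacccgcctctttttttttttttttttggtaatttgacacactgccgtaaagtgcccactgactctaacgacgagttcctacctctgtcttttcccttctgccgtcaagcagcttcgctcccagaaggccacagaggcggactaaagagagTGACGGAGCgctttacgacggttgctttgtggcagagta
Psmb5: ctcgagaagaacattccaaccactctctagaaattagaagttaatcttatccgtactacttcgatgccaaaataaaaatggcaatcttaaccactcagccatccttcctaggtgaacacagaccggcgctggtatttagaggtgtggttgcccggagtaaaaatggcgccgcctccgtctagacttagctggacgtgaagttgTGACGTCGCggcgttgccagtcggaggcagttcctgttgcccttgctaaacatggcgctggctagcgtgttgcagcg

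The same letters therefore stand in windows of genes that rose and of 1 that did not pass. The full element TGACTCAGC, which also fits TGANNNNGC, was in 0 of 42 member windows and in 0.426% of all windows. The box CCAAT was in 14 of 42 (33.3%) against 37.9%. For interferon, the core of the interferon-stimulated response element, a pair of GAAA repeats with any 2 bases between them, was in 5 of 42 (11.9%) against 3.49%, and none of the 3 immunoproteasome windows held it. The gamma-activated sequence TTCNNNGAA was in 3 of 42 (7.14%) against 8.47%, and in 1 window, of Psmg1, it overlapped a match to TGANNNNGC. Among the immunoproteasome genes Psmb8 was the 1 with TTCNNNGAA, shown in capitals in chr17:34197945-34198224 (plus strand).
Psmb8: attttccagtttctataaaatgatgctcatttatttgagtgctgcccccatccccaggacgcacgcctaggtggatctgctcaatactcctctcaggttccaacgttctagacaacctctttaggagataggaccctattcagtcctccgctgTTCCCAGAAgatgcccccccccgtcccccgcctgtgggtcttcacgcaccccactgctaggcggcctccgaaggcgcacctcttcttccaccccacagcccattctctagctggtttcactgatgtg

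A match is a stretch of letters and not a measured binding site, and a missing match says only that these letters are absent from the window.

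Each library was primed at the 3′ end of messenger RNA, so a level is given as CPM, a count relative to library size that is not divided by gene length, and levels are compared between groups and not between genes. Library sizes were scaled by TMM, which assumes that most genes do not change. Library totals ran from 13659647 to 22766612 counts over all 14995 genes, and the members took between 0.307% and 0.489% of the counts of a Sham library, 0.400% and 0.639% for WM, and 0.394% and 0.527% for RYGB. The 7 hepatocyte markers, led by albumin, summed to between 37174 and 90942 CPM over Sham libraries, between 89734 and 159413 CPM over WM and between 93692 and 158577 CPM over RYGB libraries. The 10 Kupffer cell markers had sums between 78.0 and 374 CPM over Sham, 275 and 797 CPM over WM, and 231 and 909 CPM over RYGB libraries, and the sums of 15 leukocyte markers lay between 125 and 415, 109 and 616, and 135 and 313 CPM. Hepatocyte and Kupffer marker sums were thus mostly higher in both treated groups than in Sham, and their part in the results was not tested. Transcripts of pancreatic acinar cells summed to 1396 CPM in Sham 17, 2982 in RYGB 18 and 3126 in RYGB 19 and to at most 188 CPM elsewhere, where Cela1 carried the WM sums (66.7 to 188 CPM). In bulk tissue, fewer cells of a type and less RNA in each cell cannot be told apart.

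After gastric bypass, every proteasome gene that passed the test was higher. Of 49 tested members, 18 rose and 0 fell against Sham at an adjusted p under 0.05 (edgeR's quasi-likelihood test, Benjamini-Hochberg over 13121 genes), which is 36.7% where 12.7% of all tested genes rose and 11% fell. The median log2 fold change of the members was 0.49, beside -0.015 over all tested genes, and 43 of 49 values lay above 0. In WM livers 22 members rose and 1, Psmd11, fell against Sham, where 16.5% of all tested genes rose and 15% fell. The members' median was 0.46, beside -0.008 over all tested genes. Both comparisons use the same 8 Sham libraries, so they are not independent of each other. RYGB and WM were also set against each other, where 0 of 49 members passed in either direction, while 1.49% of all tested genes did (1.06% higher and 0.434% lower in RYGB). No member's RYGB and WM values were fully apart, as they were for 0.282% of all tested genes upward and 0.0762% downward.

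**Figure D1:**
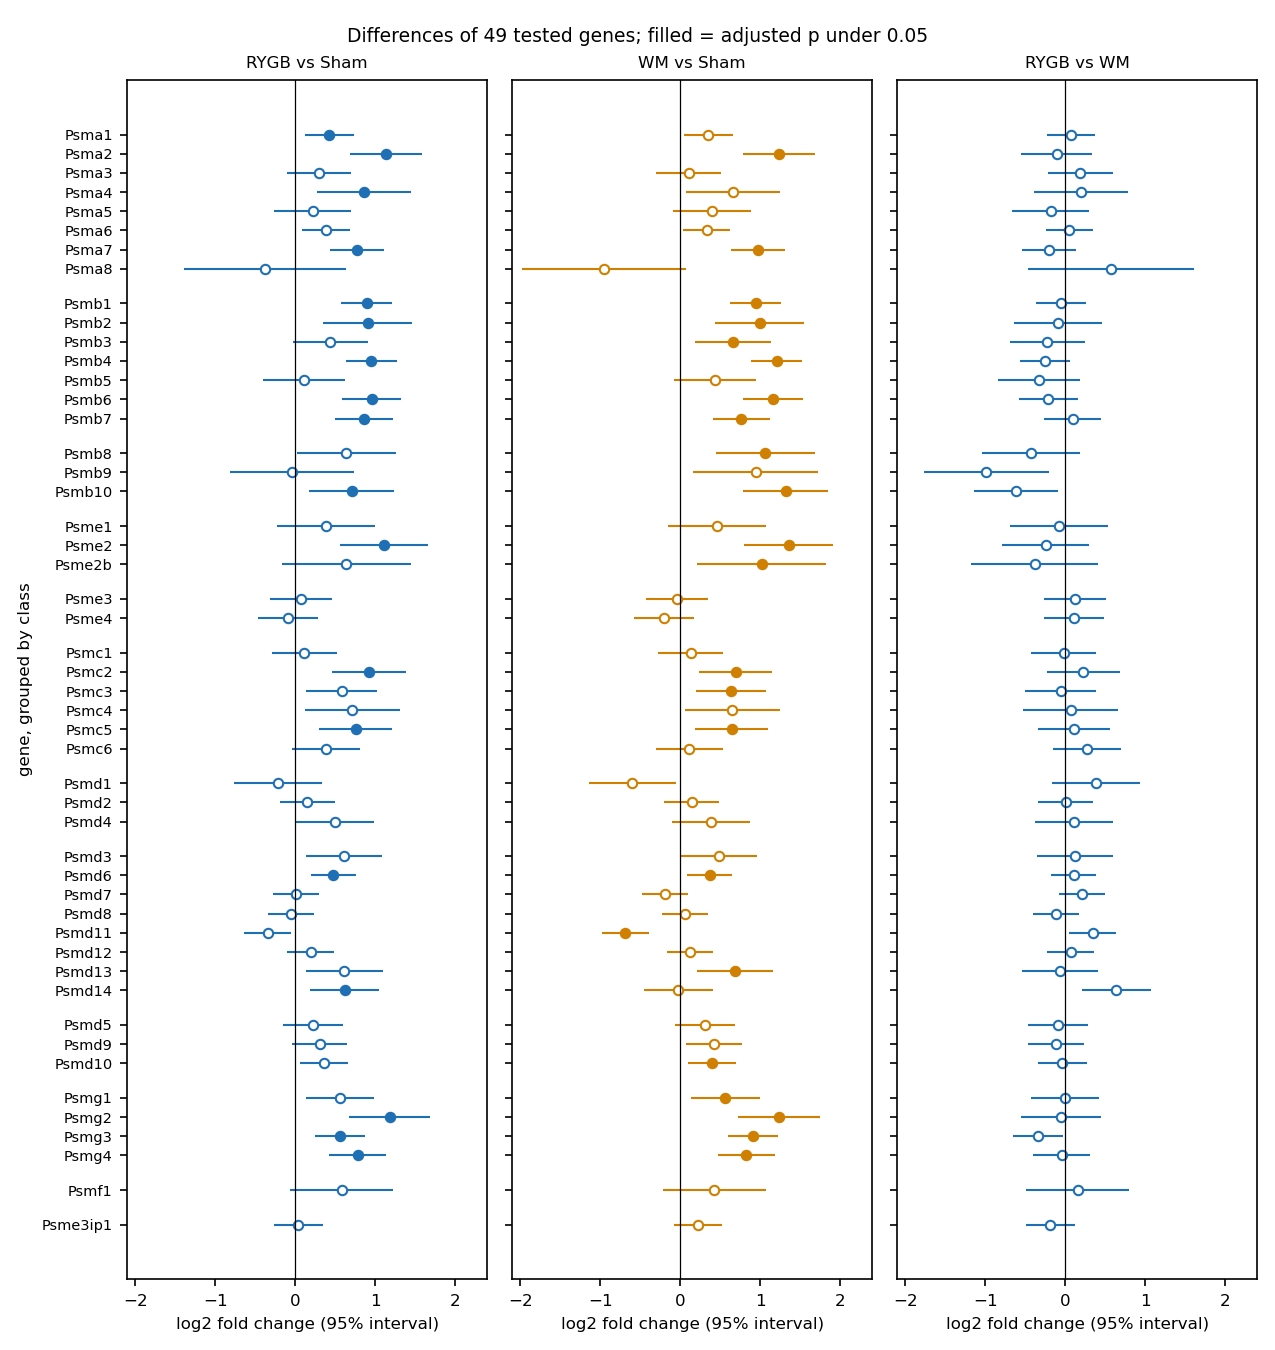
Log2 fold change (x axis) of each of the 49 tested genes (rows, grouped by class) in RYGB vs Sham, WM vs Sham and RYGB vs WM, with 95% intervals and filled points at an adjusted p under 0.05. Filled points lie right of 0 for 18 genes in RYGB vs Sham and 22 in WM vs Sham, Psmd11 is the 1 filled point on the left, and RYGB vs WM has none.

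The summed level of the core separated both treated groups from Sham on the TMM scale. Genes with high counts weigh most in this sum. Summed over 14 core genes (Psma1 to Psma7 and Psmb1 to Psmb7), the level was 1107, 1269 and 1572 CPM in the lowest, median and highest Sham library. The same sum was 1697, 2424 and 2753 CPM in WM and 1793, 2208 and 2732 CPM in RYGB. On the TMM scale every treated library lay above every Sham library. With library totals RYGB 18 fell within the Sham range, as TMM factors were 0.819 in RYGB 18 and 1.17 in Sham 14. Of the 15 tested core genes, Psma8 included, 9 rose in RYGB (median log2 fold change 0.77) and 8 rose in WM (median 0.66), and none fell. The cap did not separate in this way, with sums of 1548, 1968 and 2252 CPM in Sham, 1596, 1983 and 3493 CPM in WM and 1859, 2172 and 2798 CPM in RYGB. Among the 17 cap genes 4 rose in RYGB (median 0.47), and 5 rose and 1 fell in WM (median 0.14). Whether core and cap differ from each other was not tested.

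**Figure D2:**
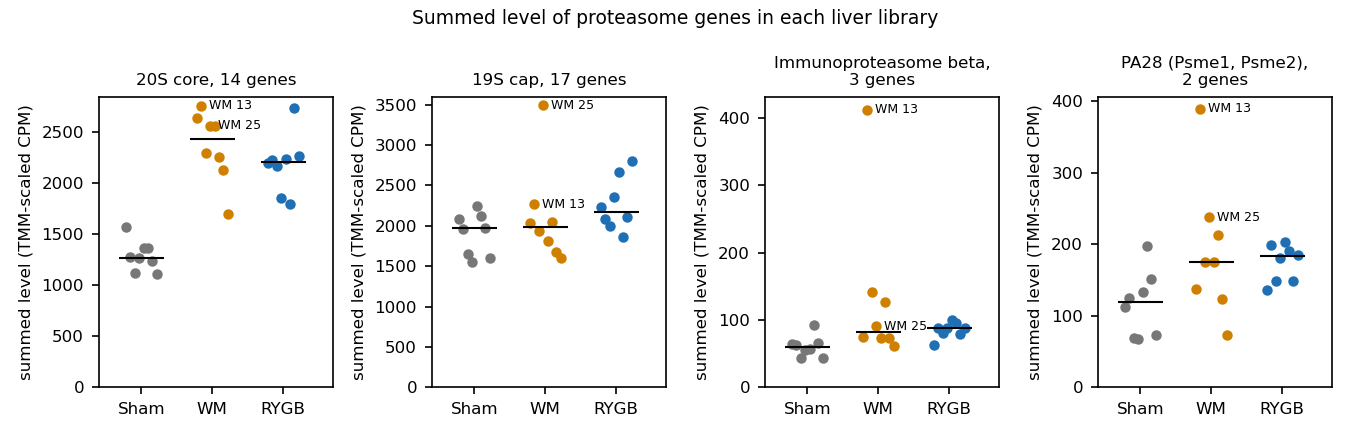
Summed level in TMM-scaled CPM (y axis, from 0) of 4 sets of proteasome genes, 1 point a library, with a line at each group's median and the libraries WM 13 and WM 25 named. Core sums of WM and RYGB lie above all Sham sums, cap sums overlap with WM 25 at 3493 CPM, and WM 13 stands at 412 CPM for the immunoproteasome genes.

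Within the constitutive beta ring, 5 of 7 genes rose in RYGB and 6 of 7 in WM, with median log2 fold changes of 0.89 and 0.94. Psmb4, a structural beta subunit, was measured at 132, 151 and 204 CPM in the lowest, median and highest Sham library, 195, 371 and 476 CPM in WM and 248, 307 and 360 CPM in RYGB. Every RYGB library stood above every Sham library, while the lowest WM library lay just below the highest Sham one. Its log2 fold change was 0.95 ± 0.16 (standard error) in RYGB (adjusted p = 5.38e-05, edgeR) and 1.21 ± 0.16 in WM (adjusted p = 1.39e-06). Psmb1, another structural subunit, stood at 101, 128 and 178 CPM in Sham, 201, 242 and 308 CPM in WM and 156, 253 and 313 CPM in RYGB. Here it was WM that cleared the Sham range entirely, with log2 fold changes of 0.89 ± 0.16 in RYGB (adjusted p = 0.00012, edgeR) and 0.94 ± 0.16 in WM (adjusted p = 4.02e-05). Separation of whole groups upward was found for 4 members in RYGB vs Sham and 5 in WM vs Sham, and over all tested genes for 3.28% and 3.15%. Downward it was found for 0 members in both, and over all tested genes for 2.1% and 2.68%.

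Of the 3 cutting subunits, Psmb6 and Psmb7 rose and Psmb5 did not pass. Psmb6, which cuts after acidic residues, ran at 69.0, 110 and 133 CPM in Sham, 124, 226 and 327 CPM in WM and 169, 210 and 259 CPM in RYGB. RYGB lay wholly above Sham, and its log2 fold change was 0.95 ± 0.18 (adjusted p = 0.000319, edgeR), with 1.17 ± 0.18 in WM (adjusted p = 2e-05). Psmb7, which cuts after basic residues, ran at 52.3, 74.9 and 104 CPM in Sham, 99.9, 132 and 173 CPM in WM and 93.4, 136 and 204 CPM in RYGB. All 8 libraries of each treated group exceeded the Sham median, with log2 fold changes of 0.86 ± 0.18 (adjusted p = 0.000694, edgeR) and 0.77 ± 0.18 (adjusted p = 0.00146). Psmb5, which cuts after hydrophobic residues and is the site blocked by the drug bortezomib, ran at 8.31, 16.2 and 25.4 CPM in Sham, 8.15, 22.8 and 34.6 CPM in WM and 9.42, 17.7 and 25.6 CPM in RYGB. The 3 groups overlapped widely, and the 95% intervals of its log2 fold change were -0.40 to 0.63 in RYGB (0.12, adjusted p = 0.782, edgeR) and -0.07 to 0.95 in WM (0.44, adjusted p = 0.185). With a correction for GC content and transcript length its sign turned in both (-0.25 in RYGB and -0.053 in WM). Psmb2 rose in RYGB and WM (0.91 and 0.99), and both calls were lost after the correction (0.50 and 0.48, adjusted p = 0.108 for each, edgeR). Psmb3 rose in WM (0.66, adjusted p = 0.0291, edgeR) and stood at 0.44 in RYGB (adjusted p = 0.172). Its WM call was lost in 7 of 24 fits without 1 library.

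The alpha ring was less even. Psma2 was the member of this ring with the smallest p in RYGB vs Sham, at 51.0, 66.7 and 145 CPM in Sham, 155, 186 and 267 CPM in WM and 117, 159 and 298 CPM in RYGB. Every WM library lay above every Sham library, and Sham 14 was the 1 Sham library that reached into the RYGB range. Psma2 had log2 fold changes of 1.14 ± 0.22 in RYGB (adjusted p = 0.000375, edgeR) and 1.24 ± 0.22 in WM (adjusted p = 9.31e-05). Psma7, the other strong mover, stood at 234, 295 and 322 CPM in Sham, 309, 601 and 736 CPM in WM and 347, 507 and 664 CPM in RYGB. RYGB cleared the Sham range and WM did so but for its lowest library. The log2 fold changes of Psma7 were 0.77 ± 0.16 in RYGB (adjusted p = 0.00104, edgeR) and 0.97 ± 0.17 in WM (adjusted p = 5.61e-05). Psma1 (0.42) and Psma4 (0.86) rose in RYGB and had adjusted p = 0.0713 and 0.08 in WM (edgeR). Each RYGB call was lost in 7 of 24 fits without 1 library. That of Psma1 was also lost without Sham 17, RYGB 18 and RYGB 19 (0.40, adjusted p = 0.106, edgeR). Psma3, Psma5 and Psma6 passed in neither comparison, with values from 0.11 to 0.40, although Psma3 passed in RYGB after the GC and length correction. Psma8, an alpha subunit of testis, lay between 0.069 and 2.24 CPM over all libraries and passed nowhere.

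**Figure D3:**
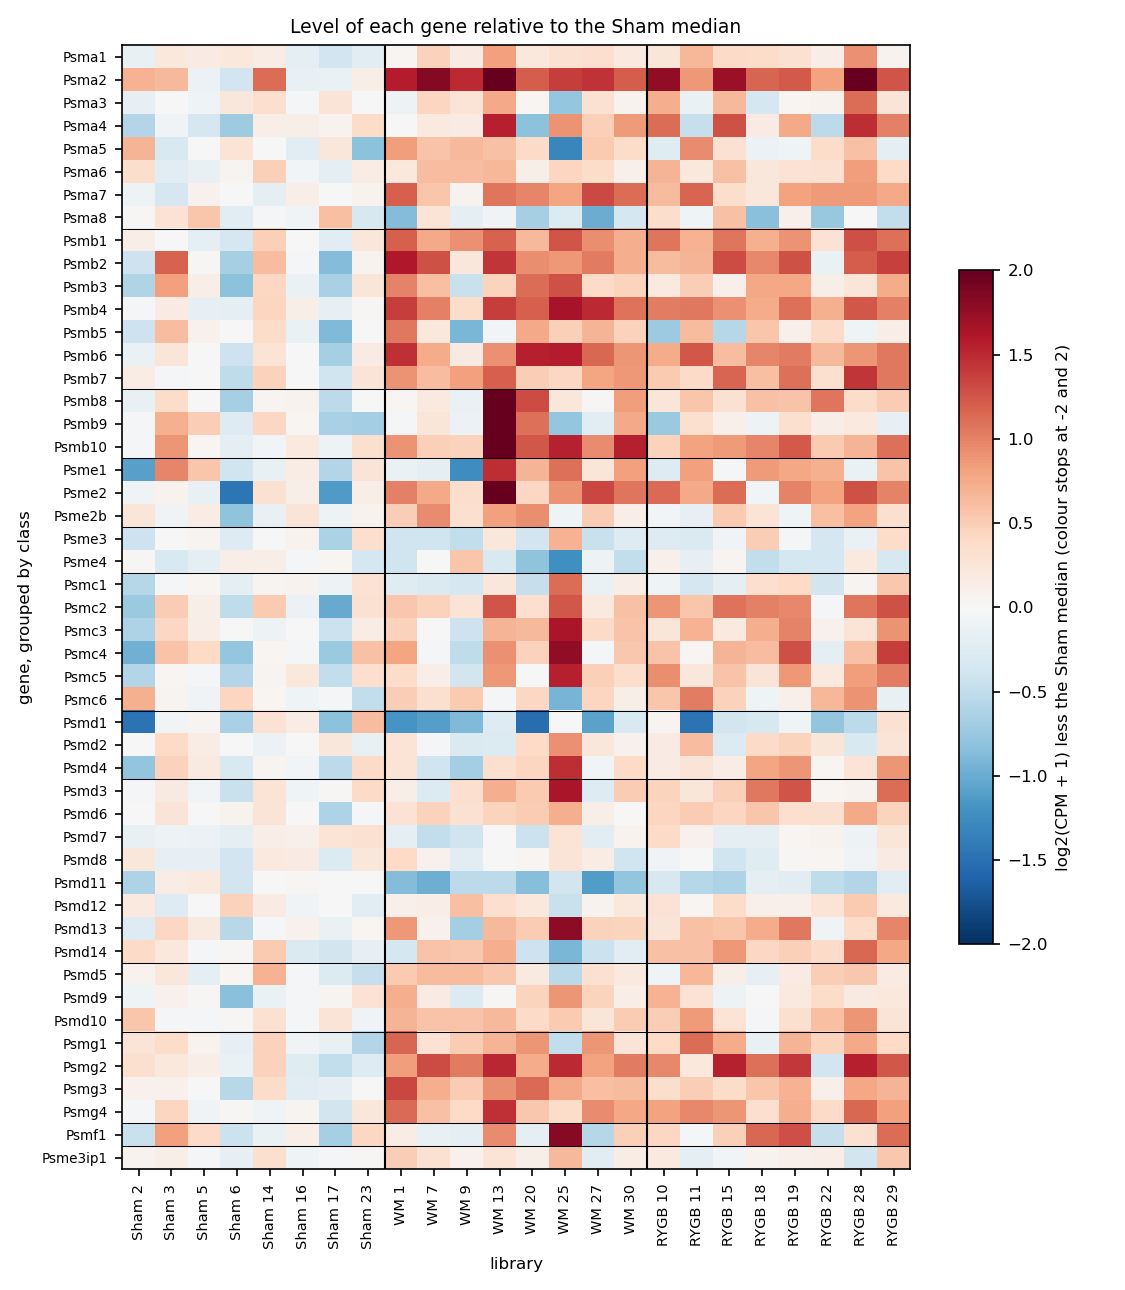
Log2(CPM + 1) of 49 genes (rows, by class) in 24 libraries (columns, by group), each less the gene's Sham median, in colours that stop at -2 and 2. Psma2, Psma7, Psmb1, Psmb4, Psmb6 and Psmb7 are raised across WM and RYGB libraries, Psmd11 is low across WM, WM 13 is darkest for Psmb8 to Psmb10 and Psme2, and WM 25 for many cap genes.

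For all 3 immunoproteasome genes, 1 WM library stood far above the rest. Psmb8, which takes the place of Psmb5, was at 14.8, 24.0 and 31.3 CPM in Sham, 21.7, 27.9 and 150.1 CPM in WM and 28.5, 35.1 and 51.7 CPM in RYGB. Its WM median was close to that of Sham, and the highest WM value came from WM 13. The log2 fold change was 1.07 ± 0.30 in WM (adjusted p = 0.00801, edgeR), but 0.54 without WM 13 (adjusted p = 0.0506), and it was 0.64 ± 0.30 in RYGB (adjusted p = 0.124). Psmb8 did pass in RYGB when RYGB and Sham were fitted alone (0.65, adjusted p = 0.0049, edgeR) and without WM 13 and WM 25 (0.64, adjusted p = 0.0167).

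Psmb9, which replaces Psmb6, was at 10.2, 16.9 and 28.2 CPM in Sham, 9.53, 18.5 and 133 CPM in WM and 9.69, 18.5 and 21.4 CPM in RYGB. The groups overlapped almost completely outside WM 13, with log2 fold changes of -0.04 ± 0.38 in RYGB (adjusted p = 0.952, edgeR) and 0.94 ± 0.38 in WM (adjusted p = 0.0582), the latter 0.19 without WM 13 (adjusted p = 0.615). The WM value passed under DESeq2 (adjusted p = 0.0372) and without any 1 of Sham 3, WM 1, WM 7, WM 9, WM 25 and WM 27 (1.08, adjusted p = 0.0234 without WM 25, edgeR). Psmb10, which replaces Psmb7, was at 15.1, 17.6 and 33.1 CPM in Sham, 24.4, 38.8 and 129 CPM in WM and 24.5, 31.9 and 42.6 CPM in RYGB. All 16 treated libraries exceeded the Sham median, and Sham 3 was the Sham library inside their range. Its rise in WM was 1.32 ± 0.26 (adjusted p = 0.000326, edgeR) and 0.94 without WM 13, still past the threshold. Its rise in RYGB, 0.71 ± 0.26 (adjusted p = 0.0462), was retained in 10 of 24 fits that left out 1 library each.

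Psmb9 and Psmb8 are neighbours in the major histocompatibility complex, at chr17:34181987-34187764 and chr17:34197721-34201454 in GENCODE M21 (GRCm38), while Psmb10 lies on chromosome 8. In WM 13 the 3 genes summed to 412 CPM, against 141 CPM in the next WM library and 100 CPM in the highest RYGB library. That library also held the highest level of all 24 for 7 of 18 genes of class I antigen processing and interferon signalling, which were examined there after its value was seen. It did so too for 6 of 15 leukocyte markers and 4 of 10 Kupffer markers. The share over all genes was not computed. Tap1, a subunit of the peptide transporter encoded beside Psmb9, was at 104 CPM in WM 13 and 16.7 to 34.7 CPM in the other WM libraries, and the transcription factor Irf1 at 167 CPM against 36.2 to 80.4 CPM. B2m, the light chain of class I molecules, was at 4025 CPM in WM 13 and 1130 to 3093 CPM in the other WM libraries, within the Sham range of 2049 to 5121 CPM. Leukocyte markers summed to 616 CPM and Kupffer markers to 797 CPM there, where the WM medians were 227 and 389 CPM, and their part in the immunoproteasome values was not tested.

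The PA28 activator, a ring that opens the core for peptides, was split between its genes. Psme2, which encodes the beta subunit, was at 10.2, 29.5 and 36.6 CPM in Sham, 37.8, 58.0 and 154 CPM in WM and 28.3, 59.3 and 72.2 CPM in RYGB. WM lay wholly above Sham and 7 of 8 RYGB libraries above the Sham median. Its log2 fold changes were 1.11 ± 0.27 in RYGB (adjusted p = 0.00329, edgeR) and 1.36 ± 0.27 in WM (adjusted p = 0.000357). Psme1, which encodes the alpha subunit and lies close to it on chromosome 14, was at 39.1, 84.8 and 166 CPM in Sham, 35.2, 118 and 235 CPM in WM and 70.0, 132 and 153 CPM in RYGB. Its Sham values spanned most of the treated ranges, and it passed in neither comparison (0.39 ± 0.30 and 0.46 ± 0.30, adjusted p = 0.373 and 0.254, edgeR). Psme2b, a near copy of Psme2 with which it could exchange reads, rose in WM (1.02, adjusted p = 0.0473, edgeR) from a Sham median of 0.872 CPM to 1.64 CPM, a call that 9 of 24 fits without 1 library retained. The activators outside the PA28 pair passed nowhere. Psme3, an activator of the nucleus, had medians of 28.2, 21.4 and 26.2 CPM in Sham, WM and RYGB, and Psme4, known for histone breakdown in sperm and after DNA damage, of 108, 84.7 and 91.4 CPM.

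Each immunoproteasome gene was also set against the constitutive gene whose place its product takes, as a log2 difference within a library, in which library scaling largely cancels. Psmb9 less Psmb6 averaged -2.62 ± 0.43 (SD, n = 8) in Sham, -3.58 ± 0.37 in RYGB and -3.25 ± 1.31 in WM. All 8 RYGB libraries lay below the Sham median, and the groups overlapped. The difference of RYGB from Sham was -0.96 (two-sided exact permutation test, p = 0.000777, adjusted p = 0.00699 over 9 tests), and after the GC and length correction it was -0.58 (adjusted p = 0.108). In WM it was -0.63 (exact permutation p = 0.221, adjusted p = 0.402), or -1.003 without WM 13 (adjusted p = 0.0343). Psmb8 less Psmb5 averaged 0.51 ± 0.37 in Sham, 1.05 ± 0.39 in RYGB and 0.87 ± 1.15 in WM. Its RYGB difference of 0.55 fell short (exact permutation p = 0.0137, adjusted p = 0.0615), although 7 of 8 RYGB libraries lay above the Sham median. That difference passed after the GC and length correction (0.77, adjusted p = 0.00559) and without the 3 libraries holding acinar transcripts (0.69, adjusted p = 0.0393). Psmb10 less Psmb7 differed by -0.11 in RYGB and 0.37 in WM (exact permutation, adjusted p = 0.664 and 0.402). None of the 3 ratios differed between RYGB and WM past the threshold (adjusted p = 0.329 to 0.701, exact permutation), where 8 against 8 libraries can give a p as small as 0.000155.

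**Figure D4:**
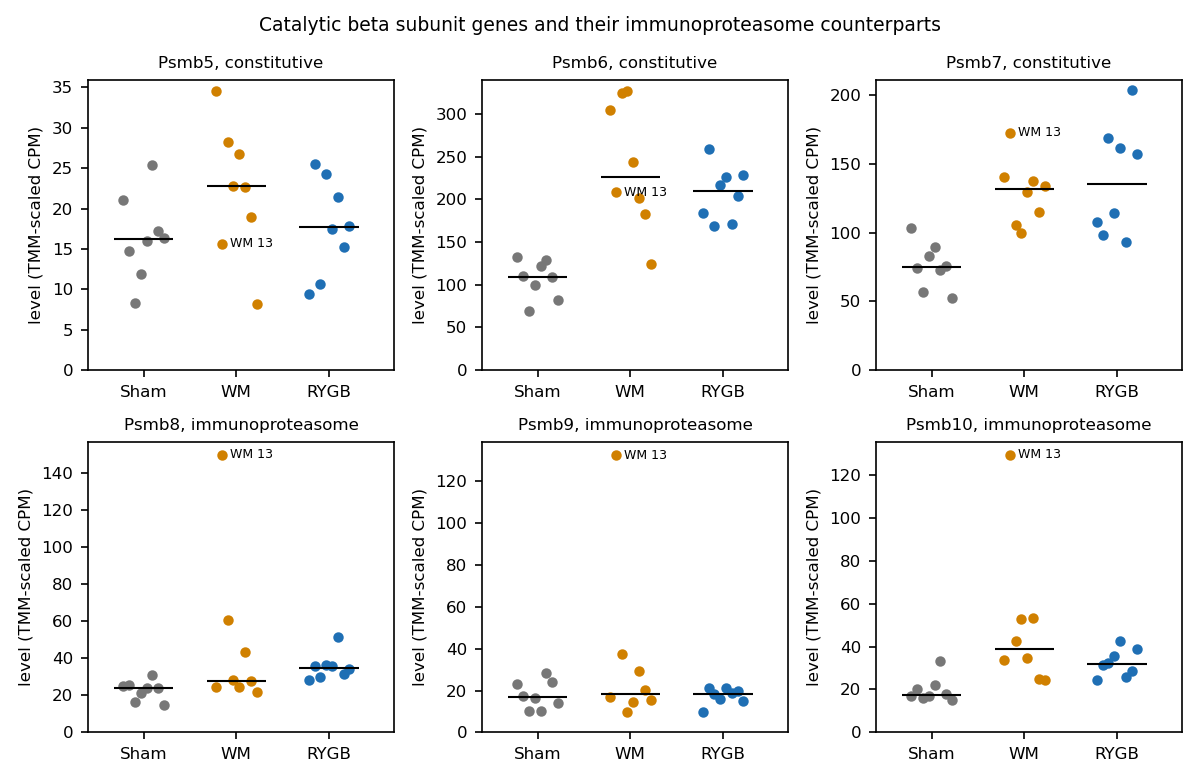
Level in TMM-scaled CPM (y axes, from 0 and different for each gene) of the cutting subunit genes Psmb5, Psmb6 and Psmb7 (top) and of the immunoproteasome genes that replace them (bottom), 1 point a library with a line at the median. Psmb6 and Psmb7 are raised in both treated groups, Psmb5 overlaps throughout, and WM 13 stands far above the other libraries for Psmb8, Psmb9 and Psmb10.

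Among the 6 ATPases of the cap's base, the motor that unfolds proteins, 2 rose in RYGB and 3 in WM. Psmc2, which had the smallest p in both, was at 31.9, 65.0 and 93.5 CPM in Sham, 74.4, 92.2 and 157 CPM in WM and 64.0, 129 and 157 CPM in RYGB. Its log2 fold changes were 0.92 ± 0.23 in RYGB (adjusted p = 0.00354, edgeR) and 0.69 ± 0.23 in WM (adjusted p = 0.0192), and without WM 13 the latter was 0.58 (adjusted p = 0.0519). Psmc5 rose in both (0.76 and 0.64) and Psmc3 in WM (0.64), beside 0.58 in RYGB (adjusted p = 0.0505, edgeR). Both WM calls were lost without WM 25 (adjusted p = 0.095 for Psmc3 and 0.103 for Psmc5, edgeR) and without Sham 2, that of Psmc5 also without Sham 6, Sham 17 or WM 13. Psmc1, Psmc4 and Psmc6 passed in neither, although Psmc6 passed in both after the GC and length correction. Of the base genes that are no ATPases, Psmd1 and Psmd2 are scaffolds and Psmd4 is a ubiquitin receptor, and none passed. Psmd1 had medians of 241, 122 and 189 CPM in Sham, WM and RYGB, with a range of 85.8 to 371 CPM inside Sham alone, and its WM value of -0.60 had adjusted p = 0.0875 (edgeR).

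The lid held the 1 member that went the other way. Psmd11, which clamps the lid to the core, was at 70.2, 108 and 125 CPM in Sham, 49.2, 60.9 and 83.7 CPM in WM and 70.6, 81.5 and 94.6 CPM in RYGB. All 8 WM libraries lay below the Sham median, and RYGB stood between the other groups. Psmd11 fell by 0.69 ± 0.14 on the log2 scale in WM (adjusted p = 0.000595, edgeR) and was at -0.34 ± 0.14 in RYGB (adjusted p = 0.0813). With the GC and length correction the WM value was -0.29 (adjusted p = 0.35, edgeR). Its longest annotated transcript is AT-rich and long for a member, at 39.9% GC and 2975 bp. Psmd14, the enzyme that strips ubiquitin off the incoming protein, was at 25.6, 33.2 and 48.3 CPM in Sham, 17.1, 27.1 and 55.4 CPM in WM and 43.7, 50.2 and 74.5 CPM in RYGB. It rose in RYGB (0.62 ± 0.21, adjusted p = 0.0305, edgeR) and had a log2 fold change of -0.02 in WM. This call was lost without any 1 of Sham 5, Sham 16, Sham 17, Sham 23, RYGB 15 and RYGB 28 (adjusted p up to 0.0738) and without the 3 acinar libraries (0.64, adjusted p = 0.0645). Psmd6, a scaffold of the lid, was at 30.2, 46.9 and 56.5 CPM in Sham, 47.3, 61.2 and 78.5 CPM in WM and 58.8, 63.8 and 79.8 CPM in RYGB. It rose in RYGB, where the groups did not overlap (0.47 ± 0.14, adjusted p = 0.012, edgeR), a call lost after the GC and length correction (0.26, adjusted p = 0.209), with library totals (0.14, adjusted p = 0.471) and without the acinar libraries (0.41, adjusted p = 0.0505). It also rose in WM (0.37 ± 0.14, adjusted p = 0.0398), a call that 14 of 24 fits without 1 library retained. Psmd13 rose in WM (0.68, adjusted p = 0.0253, edgeR, and 0.103 without WM 25), and Psmd3, Psmd7, Psmd8 and Psmd12 passed in neither comparison in the main fit. After the GC and length correction Psmd3 passed in RYGB and Psmd7 in WM.

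Cap calls in WM depended on WM 25. That library was the highest WM library for 20 of the 49 members, of which 12 were cap genes and 4 core genes. It was also the lowest WM library for 12 of the 49, among them the cap genes Psmc6, Psmd12 and Psmd14. The shares of all tested genes that were highest or lowest there were not computed. Counts of WM 25 also rose with the GC content of transcripts, by 0.92 log2 units per 10 points of GC, where the other 23 libraries had slopes from -0.40 to 0.47. Leaving WM 25 out left 1 cap gene higher and 2 lower in WM and 8 higher in RYGB, while core calls were 8 and 10. Without WM 13 and WM 25 together, a choice made after their values were seen, 15 members rose and 2 fell in WM, with 8 core genes higher and cap counts of 0 higher and 2 lower, and 25 rose in RYGB. Psmd1 was the second member that fell in that fit. How far the GC slope of this library sets its cap values was not tested.

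Of the 7 assembly chaperones 3 rose in RYGB and 5 in WM, and 2 and 3 did after the GC and length correction. The 7 chaperones summed to 114, 140 and 174 CPM in Sham, 188, 210 and 278 CPM in WM and 163, 200 and 236 CPM in RYGB. On the TMM scale WM thus lay wholly above Sham. Of the 4 genes that guide the building of the core, 3 rose in RYGB and all 4 in WM. Psmg2, which pairs with Psmg1 to line up alpha subunits, was at 3.24, 4.97 and 7.17 CPM in Sham, 8.98, 11.2 and 16.0 CPM in WM and 3.56, 12.5 and 16.4 CPM in RYGB. WM did not overlap with Sham, and in RYGB only RYGB 22 stayed below the Sham median. Psmg2 had log2 fold changes of 1.18 ± 0.25 in RYGB (adjusted p = 0.000921, edgeR) and 1.24 ± 0.25 in WM (adjusted p = 0.0004). Psmg3, which pairs with Psmg4 at the next step, was at 20.0, 29.9 and 38.8 CPM in Sham, 42.9, 50.8 and 76.9 CPM in WM and 32.3, 43.4 and 52.0 CPM in RYGB. It rose by 0.56 ± 0.15 in RYGB (adjusted p = 0.00763, edgeR) and by 0.91 ± 0.15 in WM (adjusted p = 5.05e-05), and Psmg4 by 0.78 and 0.83, values that were 0.27 and 0.21 with both calls lost after the GC and length correction. Psmg1 rose in WM (0.57, adjusted p = 0.0396, edgeR, and 0.078 after that correction) and stood at 0.56 in RYGB (adjusted p = 0.0516). Of the 3 chaperones of the cap's base, Psmd10 rose in WM (0.40, adjusted p = 0.0413, edgeR) and stood at 0.36 in RYGB (adjusted p = 0.076). Psmd5 and Psmd9 passed in neither comparison with Sham, although Psmd5 passed in WM after the correction. The WM calls of Psmg1 and Psmd10 were lost in 9 and 10 of 24 fits without 1 library. Psmf1, an inhibitor of the core in the test tube, had medians of 17.3, 17.3 and 23.7 CPM in Sham, WM and RYGB and did not pass.

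Direct comparison of the treatments gave no call for any member. In RYGB vs WM the members' median log2 fold change was -0.035, beside -0.016 over all tested genes, and 5 of 49 had an unadjusted p under 0.05 (edgeR), while DESeq2, limma-voom and limma-trend also called 0. These 5 were Psmd14 (0.64, 95% interval 0.21 to 1.07), Psmb9 (-0.98), Psmd11 (0.34), Psmb10 (-0.61) and Psmg3 (-0.34), with adjusted p from 0.15 to 0.371. Without WM 13 the values of Psmb9 and Psmb10 were -0.23 and -0.23, and that of Psmb8 turned from -0.43 to 0.11. For the core genes that rose in both groups, other than Psma7, Psmb2 and Psmb7, 95% intervals are given here. Each covers 1 gene and is not adjusted for the number of genes. That of Psmb4 ran from -0.57 to 0.06, of Psmb6 from -0.58 to 0.16, of Psma2 from -0.55 to 0.34 and of Psmb1 from -0.37 to 0.27. Psmd14 was the 1 member called higher in RYGB than in WM with the GC and length correction (0.67, adjusted p = 0.0169, edgeR).

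Other genes of the pathway were followed through 4 lists, named by the smallest p. Among 13 further proteasome parts and partners, 2 rose in each treated group and 2 fell in WM, with medians of -0.08 and -0.04. These shares are near those of all tested genes, of which 12.7% rose in RYGB, 16.5% rose in WM and 15% fell in WM. Pomp, the maturation factor that is itself the first substrate of a finished core, rose from a mean of 130 CPM in Sham to 369 CPM in RYGB and 350 CPM in WM (log2 fold changes 1.5 ± 0.30 and 1.43 ± 0.30, adjusted p = 0.000536 and 0.00061, edgeR). Sem1, a small subunit of the lid, rose by 0.83 and 0.80 (adjusted p = 0.0403 and 0.0379, edgeR), calls lost in 7 and 9 of 24 fits without 1 library. In WM Usp14, a deubiquitinase docked on the cap, and Ecpas, an adaptor that ties proteasomes to other structures, fell (-0.50 and -0.71), and both calls were lost after the GC and length correction (0.022 and -0.28).

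Of 12 genes around the transcription of proteasome genes, none rose, 3 fell in RYGB and 4 fell in WM, where 11% and 15% of all tested genes fell, with medians of -0.27 and -0.24. Fbxw7, a ubiquitin ligase subunit that marks Nfe2l1 among other proteins, fell in both (-0.66 and -0.82, adjusted p = 0.0181 and 0.00276, edgeR), with the RYGB call lost after the GC and length correction (-0.48, adjusted p = 0.0532). So did Ddi2, the protease that activates Nfe2l1 (-0.48 and -0.40, adjusted p = 0.0166 and 0.0372, edgeR). After the GC and length correction both Ddi2 calls were lost (-0.12 and 0.024), and the WM call was also lost in 9 of 24 fits without 1 library. Nfe2l2, the oxidative stress factor, fell in RYGB (-0.44, adjusted p = 0.0439, edgeR), a call lost in 11 of 24 fits without 1 library. Without the acinar libraries the RYGB calls of Fbxw7, Ddi2 and Nfe2l2 were lost (adjusted p = 0.109, 0.0928 and 0.163, edgeR). So was the WM call of Ddi2 (adjusted p = 0.106, edgeR). Nfe2l1, the main driver of proteasome genes, fell in WM (-0.46, adjusted p = 0.0277, edgeR). Its call was lost without any 1 of Sham 14, Sham 17 and WM 7 (adjusted p up to 0.0841). Without the acinar libraries it was lost as well (-0.40, adjusted p = 0.0645). Stat3 also fell in WM (-0.79, adjusted p = 0.00378, edgeR). These are messenger RNA levels of factors whose activity is set largely on the protein.

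Among 16 genes of ubiquitin and its shuttles, 3 rose in both treated groups, 1 fell in RYGB and 2 fell in WM, with medians of 0.16 and -0.08, shares near the 12.7% and 16.5% of all tested genes that rose and the 11% and 15% that fell. Rps27a, which encodes ubiquitin joined to a ribosomal protein, rose from a mean of 31.4 CPM in Sham to 129 CPM in RYGB and 109 CPM in WM (log2 fold changes 2.04 and 1.79, adjusted p = 0.000339 and 0.000816, edgeR). Ubb, which encodes a chain of ubiquitin units, rose from 331 to 501 and 508 CPM, and lost both calls after the GC and length correction. Rps27a has processed copies elsewhere in the genome, so that reads may be shared. Ubqln2, a shuttle factor, fell in both (-0.87 and -0.77, adjusted p = 0.0214 and 0.0326, edgeR). Both calls were lost without the acinar libraries (adjusted p = 0.0984 and 0.0516), and the WM call in 5 of 24 fits without 1 library. Uba6, an activating enzyme, fell in WM (-0.83, and -0.087 with the call lost after the GC and length correction). Ubqln2 and Uba6 were named after their values were seen. Of 18 genes of class I antigen processing and interferon signalling, with medians of 0.02 and 0.23, none rose (beside 12.7% and 16.5% of all tested genes), Tap2 fell in RYGB (-0.98, adjusted p = 0.0313, edgeR), and B2m and Pdia3, a chaperone that loads peptides, fell in WM (-0.75 and -0.61, adjusted p = 0.0163 and 0.00847). The Tap2 call was lost with limma-trend (adjusted p = 0.0922) and without the acinar libraries (adjusted p = 0.0615, edgeR). It was also lost without any 1 of Sham 3, Sham 5 and RYGB 10. All 4 lists had 0 calls in RYGB vs WM.

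Processing moved the number of calls more than their direction. Of the 18 RYGB calls, 7 passed under all 13 alternative settings and without each library in turn, namely Psma2, Psmb1, Psmb4, Psmb6, Psmc2, Psme2 and Psmg2. Of the 23 WM calls, 9 did so, namely Psma2, Psma7, Psmb1, Psmb4, Psmb6, Psmb10, Psme2, Psmg2 and Psmg3. Scaling by library totals in place of TMM lowered the median of all tested genes to -0.36 in RYGB and -0.33 in WM, with 754 genes higher and 3534 lower in RYGB vs Sham and 1049 and 3637 in WM vs Sham, where TMM had 1666 and 1443, and 2161 and 1964. On that scale 7 members rose and 2 (Psmd8 and Psmd11) fell in RYGB, and 11 rose and 3 (Psmd1, Psmd7 and Psmd11) fell in WM. The cap turned to 0 higher and 3 lower in WM with a median of -0.18, which is above the -0.33 of all genes, while 4 and 6 core genes still rose and none fell. Transcript length also moved with the groups. With each gene centred on its mean log2 CPM, a library's slope on log2 transcript length lay between 0.093 and 0.24 for Sham, -0.21 and 0.054 for WM, and -0.15 and 0.023 for RYGB. The longest annotated transcript of each gene stood for its length and GC content, and need not be the one expressed. By this measure members are short, with a median of 1895 bp against 3106 bp. After the correction for GC content and length, 14 members rose in each comparison with Sham (median 0.35 in RYGB and 0.36 in WM, beside 0.062 and 0.084 over all tested genes), 7 and 6 of them in the core. That correction ended 7 of the 18 RYGB calls (Psma1, Psma4, Psmb2, Psmb10, Psmc5, Psmd6 and Psmg4) and 11 of the 23 WM calls (Psmb2, Psmb3, Psmc3, Psmc5, Psmd6, Psmd10, Psmd11, Psmd13, Psme2b, Psmg1 and Psmg4). It added calls of Psma3, Psmc6 and Psmd3 in RYGB and of Psmc6, Psmd5 and Psmd7 in WM. In WM 15 members then passed in either direction, with Psmd11 no longer among them. Psmd7 had medians of 203 CPM in Sham and 175 CPM in WM. Leaving out Sham 17, RYGB 18 and RYGB 19 ended the RYGB calls of Psma1, Psmb2, Psmb10, Psmd6 and Psmd14 and added that of Psmd10. In WM it ended those of Psmb3, Psmc2, Psmc3, Psmc5, Psmd6, Psme2b and Psmg1 and added none.

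**Figure D5:**
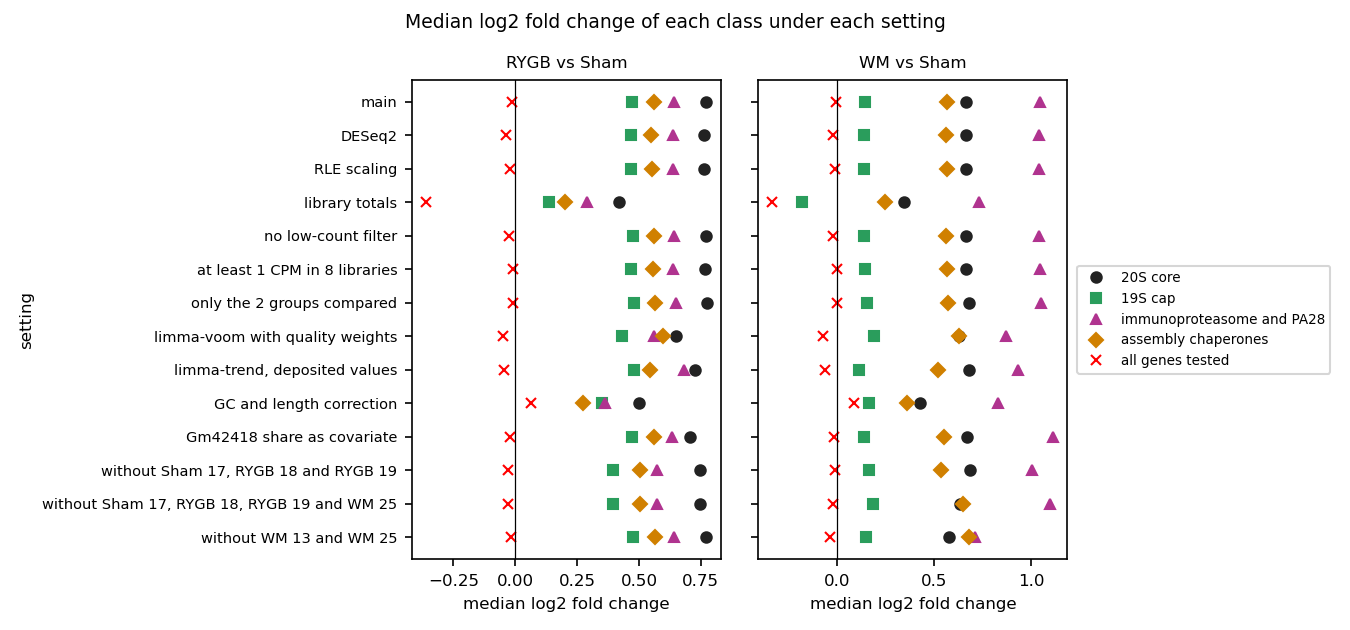
Median log2 fold change (x axis) of 4 classes of proteasome genes and of all tested genes under each processing setting (rows), for RYGB vs Sham and WM vs Sham. The core stays right of 0 and right of all tested genes under every setting shown, and the cap lies left of 0 in WM vs Sham only with library totals.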

How the data were processed

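RNA of mouse liver was sequenced from its 3′ end in 24 libraries (single 50-base reads, per the labels' protocols). The deposited table of raw counts per gene, made by the authors, was the material of every main test. The deposited normalized values, a signal on the count scale, were made by the authors with DESeq2 1.34 in R 4.1.2, per the submitters' processing notes, and equal the counts divided by median-of-ratios size factors. The aligner, counter, strand setting, genome build and read filters behind them are not stated by any source used here. Symbols came from the second table and were joined to the counts by Ensembl ID.

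Groups were taken from the labels. Of 14995 genes, 13121 passed edgeR's filterByExpr. One edgeR 4.0.16 quasi-likelihood model (R 4.3.3, TMM scaling) was fitted over all 24 libraries, and p-values were adjusted by Benjamini-Hochberg over all 13121 genes at a threshold of 0.05. Standard errors are the log2 fold change over the square root of F, with 95% intervals from the t distribution. Depth was 13659647 to 22766612 counts a library, and no pair of libraries within a group was a duplicate. Ratios of paired subunits used log2 CPM with a prior count of 2 and exact permutation tests, adjusted over 9. The labels do not say what separates libraries of a group, so p-values measure the spread between these libraries. Alternatives were DESeq2 1.42.0, limma 3.58.1 (voom with quality weights, and trend on the deposited values with pseudocount 1), other scalings and filters, 2-group fits, a GC and length correction (mgcv 1.9.3), the share of the repeat-rich transcript Gm42418 as covariate, and fits without libraries. Tested on simulated data for RYGB vs Sham, the edgeR fit recovered 91.9% of seeded 4-fold changes, 42.1% of 2-fold and 6.17% of 1.5-fold ones. Far fewer genes were changed there than were called in the data (23.7% of those tested). The adjustment was therefore stricter in the simulation, and these shares do not measure how many real changes were missed.

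Members and lists were chosen with earlier results of these data known. All members could be named, with levels given for the cutting subunits, their immunoproteasome partners, PA28, the member of each class with the smallest p in each comparison and any member called against the majority, and up to 3 genes with the smallest p from each pathway list, some of which are not reported here. Positions, and the length and GC content of each gene's longest transcript, were read from GENCODE M21. Promoters came from RefSeq (GRCm38.p6), and protein sequences were not used here.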

Additional observations from a re-analysis of the deposited data

Results flagged for a closer look

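Levels of each member and of the summed classes were searched for a library far from the rest of its group of 8 by Dixon's test at its 95% critical value. For independent, normally distributed levels about 1 in 20 groups would be flagged, or 8.1 of the 162 groups searched. Found were 22, of which 6 were in WM 13 and 10 in WM 25. Levels were not logged, members share libraries and the sums repeat members, so 22 beside 8.1 does not measure an excess.

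In WM 13 the immunoproteasome genes stood far above the next WM library, with Psmb8 at 150.1 CPM against 60.8 CPM, Psmb9 at 133 CPM against 37.6 CPM and Psmb10 at 129 CPM against 53.4 CPM. Their sum there was 412 CPM against 141 CPM, Psme2 stood at 154 CPM against 76.0 CPM, and Psma1 at 116 CPM against 89.7 CPM.

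In WM 25 many cap genes were high, while Psmc6, Psmd12 and Psmd14 had their lowest WM level there. Their sum was 3493 CPM against 2265 CPM in the next WM library. Among the ATPases, Psmc1 reached 378 CPM against 203 CPM, Psmc3 327 CPM against 169 CPM and Psmc4 178 CPM against 98.1 CPM. The other cap genes so placed were Psmd2 at 327 CPM against 229 CPM, Psmd3 at 304 CPM against 162 CPM, Psmd4 at 436 CPM against 211 CPM and Psmd13 at 288 CPM against 151 CPM. The inhibitor gene Psmf1 was at 63.4 CPM against 33.9 CPM, and the core gene Psma5 was low there at 13.1 CPM against 43.9 CPM in the next lowest library.

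Sham 3 held the highest Psmb10 of its group, at 33.1 CPM against 22.1 CPM, and the highest immunoproteasome sum, at 92.7 CPM against 66.0 CPM. RYGB 22 held the highest Psmb8 of its group, at 51.7 CPM against 36.4 CPM. Low values in Sham were found for Psmd6 in Sham 17 (30.2 CPM against 45.8 CPM in the next lowest library), for Psmd9 in Sham 6 (21.4 CPM against 35.2 CPM) and for Psme2b in Sham 6 (0.074 CPM against 0.692 CPM).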

How the results depend on the processing

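Members that rose in RYGB vs Sham numbered 18 and ranged from 15 to 24 when 1 library was left out, and were 7 with library totals. Those that fell numbered 0, and were 2 with library totals, 1 with limma-voom and 0 to 1 without 1 library. In WM vs Sham 22 rose, with 15 to 24 without 1 library, 11 with library totals and 14 with the GC and length correction. There 1 fell, and 3 did with library totals, 2 with limma-voom, 2 without the acinar libraries and WM 25, 2 without WM 13 and WM 25 (chosen after seeing the data) and 1 to 2 without 1 library. In RYGB vs WM 1 rose with the GC and length correction, and 0 without any 1 library. The log2 ratio of Psmb8 to Psmb5 in RYGB vs Sham (0.55) passed after GC and length correction (0.767), when Sham 17, RYGB 18 and RYGB 19 were left out (0.692, also without WM 25) and without WM 13 and WM 25 (0.546), and ranged from 0.453 to 0.627 without 1 library. That of Psmb9 to Psmb6 missed with the GC and length correction (-0.577) in RYGB vs Sham, where it ranged from -1.10 to -0.869 without 1 library. In WM vs Sham it passed without WM 13 and WM 25 (-0.760) and ranged from -1.003 (without WM 13) to -0.370. Signs turned for Psmb5 in RYGB vs Sham (-0.205 with library totals, -0.0635 with limma-voom, -0.254 after GC and length correction, -0.0720 lacking the acinar libraries, -0.0719 also without WM 25) and in WM vs Sham (-0.0531 with the GC and length correction). They turned for Psmb9 in RYGB vs Sham (0.00032 with limma-trend, -0.130 to 0.0911 without 1 library, the latter without Sham 3) and Psmb8 in RYGB vs WM (0.0722 without WM 13 and WM 25, -0.535 to 0.105 without 1 library, the latter without WM 13). With the GC and length correction they turned for Usp14 (0.0224), Ddi2 (0.0241) and the ratio of Psmb10 to Psmb7 (-0.250) in WM vs Sham. Ratios between groups also turned for Psmb10 to Psmb7 in RYGB vs Sham (-0.209 to 0.000382 without 1 library), Psmb8 to Psmb5 in RYGB vs WM (-0.00865 to 0.525) and Psmb9 to Psmb6 in RYGB vs WM (-0.591 to 0.0420). Among single genes followed through the alternatives, which were mostly those already called, 133 values lost their call and 1020 kept direction and call. Calls were also gained, such as those of Psmc3, Psmd3, Psma6, Psmg1 and Psmd13 in RYGB vs Sham under DESeq2. The cause of these changes was not tested. Psma8 and Psme2b, near 1 CPM, are limited by depth. No paired analysis was possible because the groups share no replicate numbers.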
